A study of Mus musculus with 30 samples.

Results

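The canonical WNT feedback target genes are a set of 10 genes, *Axin2*, *Notum*, *Nkd1*, *Nkd2*, *Apcdd1*, *Sp5*, *Lef1*, *Tcf7*, *Znrf3* and *Rnf43*, picked by name and found by their symbols among the 50833 genes of the count table. All 10 were in the count table and in the FPKM table, all 10 lie on autosomes, and all 10 passed the filter on low counts in every comparison. RNA was sequenced from forelimb buds of wild-type Swiss Albino mouse embryos whose mothers were injected at E10.5 with DMSO solvent or with Wnt-C59 (C59), and collected 1, 6, 12, 18 or 24 h later. Each of the 10 groups held 3 libraries, each made from the forelimb bud pair of 1 embryo, and the replicates of a group came from different embryos. By the methods of the study the controls received DMSO in PBS, whereas C59 was given in a vehicle that also held methylcellulose and Tween-20, so the vehicle and the inhibitor cannot be told apart. Of the 10 genes, 7 are also in a panel of WNT genes that was drawn up from these libraries, so their direction in C59 is not independent evidence. The others are *Lef1*, *Znrf3* and *Rnf43*, and they too were chosen with earlier results of these data known.

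WNT ligands must be acylated by the enzyme Porcupine (*Porcn*) before their carrier Wntless (*Wls*) can take them to the cell surface, and C59 inhibits Porcupine. At the receiving cell, ligand bound to Frizzled and LRP receptors stops the destruction complex from degrading β-catenin, which then enters the nucleus and activates genes together with DNA-binding proteins of the TCF/LEF family. Genes activated in this way are read as a measure of pathway activity. Many of them restrain the pathway themselves, at the ligand, the receptor, in the cytoplasm or on DNA. In the limb bud the surface ectoderm is a major source of WNT ligands for the mesenchyme beneath it.

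The whole set was lower with C59 at 6 h, and its genes differed in how long a difference was detected afterwards. At 6 h all 10 genes were lower than in DMSO (11.4% of 13100 tested genes were lower), from *Sp5* at 4.29% of its DMSO mean to *Rnf43* and *Znrf3* at 56.4% and 67.3%. At 12 h 9 of the 10 were lower (25.5% of 13324 tested genes), and *Rnf43* was the exception, at 138% of its DMSO mean. All 3 C59 libraries lay below all 3 DMSO libraries for each of the 10 genes at 6 h, as they did for 19.3% of all tested genes. At 18 h 3 genes were lower (3.62% of 13413 tested genes), namely *Tcf7*, *Apcdd1* and *Nkd2*. At 24 h *Tcf7* alone was lower (3.56% of 13675 tested genes). At 1 h *Axin2* and *Apcdd1* were already lower (1.61% of 13076 tested genes), with 87.5% and 82.1% of the DMSO mean left. A gene counts as lower or higher where the Benjamini-Hochberg adjusted p of edgeR's quasi-likelihood test over all tested genes was below 0.05.

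In these bulk samples fewer cells that express a gene and less RNA per cell cannot be told apart. The label forelimb fitted the markers, with *Tbx5* between 35.8 and 71.3 FPKM and the hindlimb genes *Pitx1* and *Tbx4* at no more than 1.96 and 5.55 FPKM. Total counts ran from 18188636 to 38974885 per library. Replicate 3 of C59 at 18 h stood farthest from its group, with a root mean square log2 difference of 0.375 from the mean of the other 2 libraries, where the next largest among the 30 libraries was 0.257. Embryo sex was not balanced: 4 Y-linked genes summed to between 19.8 and 33.2 FPKM in the C59 libraries of 6 h and were listed at 0 in those of DMSO, so sex and C59 cannot be told apart at 6 h. At 1 h the sums were 21.2 to 38.2 FPKM with C59, and 7.66, 9.03 and 0.0469 FPKM in the DMSO libraries. Sums above 1 FPKM were thus found in 3 C59 and 2 DMSO libraries at 1 h. At 18 h they were found in 2 C59 libraries and 1 DMSO library, and at 24 h in 3 C59 and 2 DMSO libraries. At 12 h each group had 1 library with a sum above 1 FPKM. Between those 2 libraries *Axin2* was at 110 CPM (DMSO) and 38.9 CPM (C59), and among the 4 libraries without that signal at means of 111 and 41.2 CPM. With 1 library against 1 no test was made.

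The promoters of 7 of the 10 genes were held in the RefSeq promoter table (GRCm38.p6), with 12 entries, and none was listed there for *Notum*, *Znrf3* and *Apcdd1*. The 250 bases before each start were searched on both strands for CTTTGA and CTTTGT, the core letters of TCF/LEF binding motifs. These letters were found before the start of *Sp5*, the gene with the largest decrease at 6 h, and before a start inside *Lef1* (chr3:131110471-131224356), and in none of the other 10 entries. Among all 32851 promoters of the same length 27.6% held at least 1 match, 0.776% held at least 3 and 0.0944% held at least 4. The windows of *Sp5*, with 4 matches, and of the internal *Lef1* start, with 3, are shown beside that of *Axin2*, which held no match and serves as the usual reference gene of the pathway. They lie at chr2:70474673-70474922 (plus strand), chr3:131156044-131156293 (plus strand) and chr11:108920099-108920348 (plus strand), and capitals mark the letters searched for on either strand.
Sp5: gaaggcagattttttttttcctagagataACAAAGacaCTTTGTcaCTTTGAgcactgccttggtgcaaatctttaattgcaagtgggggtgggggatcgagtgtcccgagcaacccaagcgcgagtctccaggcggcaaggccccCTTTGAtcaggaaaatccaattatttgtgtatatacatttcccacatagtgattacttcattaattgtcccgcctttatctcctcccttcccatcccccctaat
Lef1: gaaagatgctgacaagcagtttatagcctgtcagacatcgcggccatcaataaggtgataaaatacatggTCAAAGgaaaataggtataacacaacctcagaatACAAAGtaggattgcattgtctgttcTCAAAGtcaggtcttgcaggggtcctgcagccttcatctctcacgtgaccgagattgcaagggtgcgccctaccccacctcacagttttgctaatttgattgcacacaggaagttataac
Axin2: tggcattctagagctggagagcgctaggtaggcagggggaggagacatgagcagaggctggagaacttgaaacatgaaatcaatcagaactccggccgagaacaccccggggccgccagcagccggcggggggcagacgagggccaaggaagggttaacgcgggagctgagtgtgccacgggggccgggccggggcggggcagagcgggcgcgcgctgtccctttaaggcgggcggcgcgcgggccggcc
The matches in *Sp5* began at positions -221, -212, -204 and -104 counted from the start of transcription, and those of the *Lef1* window at -180, -146 and -120. A match is only a run of letters, and its absence from a window of 250 bases says nothing about sites elsewhere.

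In DMSO limb buds the 10 genes spanned a wide range of levels per length. Over the 15 DMSO libraries *Axin2* was highest at 29.2 ± 1.81 FPKM (SD, n = 15). It was followed by *Lef1* (23.6 ± 1.10 FPKM), *Nkd1* (22.9 ± 1.83 FPKM), *Apcdd1* (21.1 ± 3.54 FPKM) and *Nkd2* (18.4 ± 2.13 FPKM). Within this run *Lef1*, *Nkd1*, *Apcdd1* and *Nkd2* each lay within 1 SD of the next, taking the larger SD of the 2. *Tcf7* came next at 13.2 ± 3.90 FPKM, a spread that holds its decline over the 5 time points. The order was not the same at every time: at 1 h *Tcf7* (18.7 FPKM) was above *Nkd2* (14.9 FPKM), and at 24 h *Apcdd1* (27.1 FPKM) and *Nkd1* (25.6 FPKM) were above *Lef1* (23.7 FPKM). *Notum* (5.24 ± 1.00 FPKM) and *Znrf3* (4.38 ± 0.387 FPKM) did not differ beyond their spread. *Sp5* (1.5 ± 0.633 FPKM) and *Rnf43* (0.667 ± 0.154 FPKM) were lowest, and their counts per library were accordingly small.

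**Figure D1:**
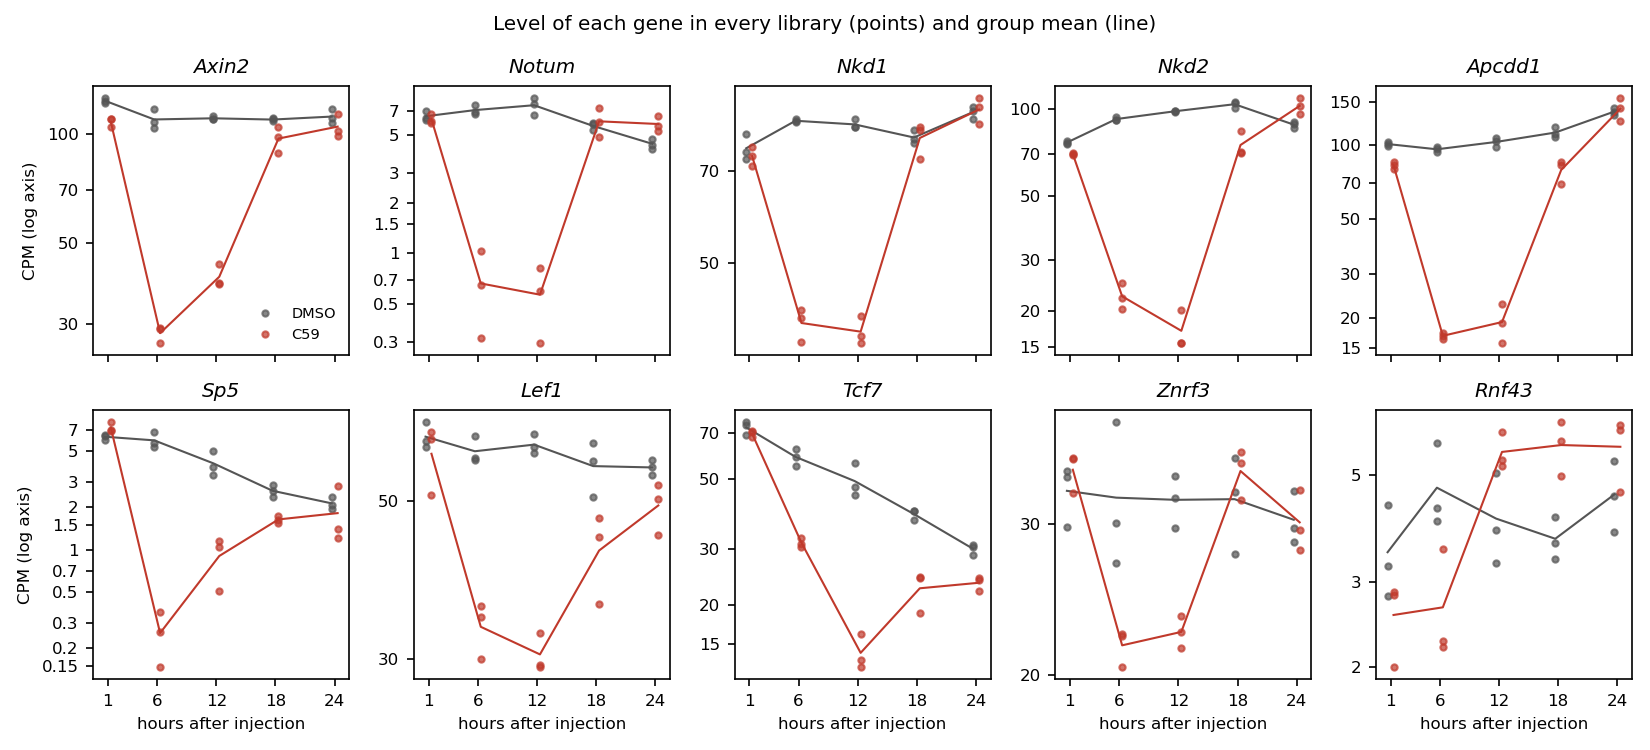
Level of each of the 10 genes in every library, as normalised counts (CPM, log axis), against hours after injection; points are libraries (DMSO grey, C59 red) and lines join the means of 3 libraries. At 6 h the 3 C59 points lie below the 3 DMSO points in every panel, and *Rnf43* at 12 h shows them above.

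In the cytoplasm, *Axin2*, *Nkd1* and *Nkd2* fell together at 6 h but not by the same amount or for the same time. *Axin2* (ENSMUSG00000000142, chr11:108920349-108950783) encodes a scaffold of the destruction complex and is the standard readout of the pathway. At 1 h it stood at 126, 124 and 122 CPM in DMSO and at 111, 110 and 105 CPM in C59. The groups did not overlap, and the log2 fold change of -0.19 ± 0.04 (SE, n = 3 against 3) passed with an adjusted p of 0.0282. Leaving out 1 library ended this call in 5 of the 6 cases (adjusted p 0.0666 to 0.128). At 6 h *Axin2* fell from 108, 118 and 104 to 29.0, 29.2 and 26.5 CPM, 3.91-fold. At 12 h it was 112, 110 and 110 CPM in DMSO against 38.9, 38.6 and 43.7 CPM in C59, a smaller 2.74-fold decrease. At 18 h the C59 libraries, at 105, 89.1 and 98.2 CPM, still lay below the lowest DMSO library of 109 CPM, but the log2 difference of -0.16 ± 0.09 did not pass (adjusted p 0.333).

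*Nkd1* (ENSMUSG00000031661, chr8:88521354-88594884) and *Nkd2* (ENSMUSG00000021567, chr13:73818534-73847631) encode Naked cuticle proteins, which bind Dishevelled and dampen the signal. *Nkd1* went from 84.2, 84.6 and 83.6 CPM to 42.1, 37.6 and 41.0 CPM at 6 h and from 82.1, 84.6 and 82.4 CPM to 41.2, 37.4 and 38.3 CPM at 12 h. Its level was similar at both times, with 47.8% and 46.9% of the DMSO mean left. *Nkd2* went from 91.1, 93.9 and 91.3 CPM to 25.0, 22.1 and 20.4 CPM at 6 h and from 98.2, 97.6 and 98.3 CPM to 15.6, 15.5 and 20.2 CPM at 12 h. Its decrease was the deeper of the pair, 4.10-fold and then 5.72-fold. At 18 h *Nkd1* was back among the DMSO values (81.4, 73.3 and 82.3 against 77.6, 78.6 and 81.2 CPM). *Nkd2* was still lower at 18 h, at 70.4, 70.8 and 83.6 CPM against 105, 101 and 105 CPM (log2 fold change -0.45 ± 0.10, adjusted p 0.0292), and this call was lost without any 1 library other than replicate 3 of C59 (adjusted p 0.0812 to 0.145). Without replicate 3 of C59 it was -0.54 ± 0.06 (adjusted p 0.000997). At 24 h the order of the groups was the opposite for *Nkd2*, with 109, 102 and 95.6 CPM in C59 above 88.5, 86.0 and 89.8 CPM in DMSO. This difference of 0.22 ± 0.06 on the log2 scale did not pass (adjusted p 0.0598), and it passed without replicate 3 of C59 at 24 h (0.28, adjusted p 0.0238).

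*Notum* (ENSMUSG00000042988, chr11:120653788-120661175), a secreted enzyme that removes the acyl group from WNT ligands, fell to a few counts per library at 6 h and 12 h. It went from 6.89, 6.72 and 7.56 CPM to 0.647, 1.03 and 0.315 CPM at 6 h, and from 6.64, 8.29 and 7.69 CPM to 0.817, 0.294 and 0.598 CPM at 12 h. Every C59 library was below every DMSO library, with 7 to 21 counts each against 128 to 166 at 6 h. The log2 fold changes were -3.42 ± 0.27 (adjusted p 1.87e-06) and -3.75 ± 0.28 (adjusted p 3.12e-06). At 18 h C59 stood at 6.03, 4.90 and 7.24 CPM around the DMSO values of 5.90, 5.81 and 5.35 CPM. At 24 h all 3 C59 libraries (5.71, 6.48 and 5.33 CPM) lay above those of DMSO (4.79, 4.41 and 4.16 CPM), a difference of 0.40 ± 0.15 on the log2 scale that did not pass (adjusted p 0.136).

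At the membrane the 3 genes took 3 different courses. *Apcdd1* (ENSMUSG00000071847, chromosome 18) encodes a membrane glycoprotein that binds WNT and LRP proteins and inhibits signalling. At 1 h it stood at 101, 99.0 and 103 CPM in DMSO and at 79.9, 85.7 and 83.0 CPM in C59. This was the larger of the 2 decreases that passed at 1 h (log2 fold change -0.28 ± 0.05, adjusted p 0.00355). At 6 h *Apcdd1* fell from 93.9, 96.7 and 97.8 CPM to 17.4, 16.9 and 16.4 CPM, and at 12 h from 98.3, 104 and 106 CPM to 15.7, 19.0 and 22.8 CPM. The fold decreases, 5.72 and 5.35, were close to each other. At 18 h it was back to 70.5% of the DMSO mean and still lower, with 83.0, 69.3 and 85.5 CPM against 111, 108 and 119 CPM (log2 fold change -0.48 ± 0.11, adjusted p 0.0287). Without replicate 3 of C59 the value was -0.55 ± 0.09 (adjusted p 0.00552), and without any other 1 library the call was lost (adjusted p 0.0517 to 0.151). At 24 h the groups overlapped around 137 ± 4.23 CPM in DMSO and 140 ± 14.7 CPM in C59 (SD, n = 3 each).

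*Znrf3* (ENSMUSG00000041961, chr11:5276324-5444847) and *Rnf43* (ENSMUSG00000034177, chr11:87662722-87735539) encode related ubiquitin ligases that remove Frizzled receptors from the cell surface. *Znrf3* fell least of the set at 6 h, from 27.0, 39.4 and 30.1 CPM to 22.2, 22.3 and 20.5 CPM (log2 fold change -0.57 ± 0.11, adjusted p 0.00306). At 12 h it fell from 34.1, 32.2 and 29.7 CPM to 23.4, 21.5 and 22.4 CPM (-0.51 ± 0.07, adjusted p 0.00028). The groups did not overlap at either time, and at 18 h and 24 h they did. *Rnf43* was lower at 6 h, with 2.2, 2.26 and 3.51 CPM against 4.28, 4.01 and 5.84 CPM (-0.82 ± 0.23, adjusted p 0.0210). This call rested on few counts, 46 to 103 per library, and was lost without replicate 3 of DMSO or without replicate 1 or 2 of C59 (adjusted p 0.0814 to 0.0992). *Rnf43* was then the only gene of the set whose C59 libraries all lay above those of DMSO at 12 h and again at 18 h. It stood at 5.23, 5.38 and 6.16 CPM against 3.84, 5.07 and 3.28 CPM at 12 h, and at 6.45, 5.89 and 4.99 CPM against 3.62, 4.09 and 3.35 CPM at 18 h. Neither difference passed, with 0.46 ± 0.18 (adjusted p 0.0601) and 0.65 ± 0.17 (adjusted p 0.0542). Both are near the threshold, since the 12 h value passed without replicate 2 of DMSO (0.64, adjusted p 0.0163) and the 18 h value without replicate 3 of C59 (0.74, adjusted p 0.0208). At 12 h the 1 library of each group with Y-linked signal stood at 5.07 CPM (DMSO) and 5.23 CPM (C59). The 2 libraries of each group without that signal had means of 3.56 and 5.77 CPM. The part of sex in this difference was not tested.

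In the nucleus *Sp5* (ENSMUSG00000075304, chr2:70474923-70477729), a zinc finger factor known to restrain TCF/LEF target genes, had the largest decrease of the set at 6 h. At 1 h it stood at 6.52, 6.03 and 6.40 CPM in DMSO and at 6.91, 7.09 and 8.05 CPM in C59, above rather than below its control (log2 fold change 0.22 ± 0.13, adjusted p 0.422). At 6 h it was 5.32, 6.82 and 5.73 CPM in DMSO and 0.259, 0.147 and 0.360 CPM in C59. These levels rest on 6, 3 and 8 counts in C59 against 128, 131 and 97 in DMSO. The fit gave -4.50 ± 0.29 (adjusted p 2.68e-07), and at so few counts this SE, derived from the test, may be too small. At 12 h it was 3.84, 3.40 and 5.03 CPM against 1.14, 1.05 and 0.506 CPM (-2.18 ± 0.31, adjusted p 0.000215). At 18 h the C59 libraries, 1.73, 1.55 and 1.63 CPM, were all below the DMSO libraries of 2.87, 2.60 and 2.38 CPM, but with 31 to 97 counts each the difference of -0.65 ± 0.20 did not pass (adjusted p 0.0919).

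*Lef1* (ENSMUSG00000027985, chr3:131110471-131224356) and *Tcf7* (ENSMUSG00000000782, chr11:52252371-52283014) encode 2 of the DNA-binding partners of β-catenin. Their decreases were close at 6 h and apart at 12 h. *Lef1* went from 61.8, 57.5 and 57.2 CPM to 34.4, 30 and 35.6 CPM at 6 h and from 58.5, 59.6 and 62.2 CPM to 29.5, 29.3 and 32.6 CPM at 12 h. *Tcf7* went from 62.4, 58.7 and 55.2 CPM to 31.2, 30.5 and 32.7 CPM at 6 h and from 47.1, 44.5 and 56.2 CPM to 12.7, 13.4 and 16.2 CPM at 12 h. The level left was 56.6% and 50.7% for *Lef1* but 53.5% and 28.6% for *Tcf7*. *Tcf7* remained lower to the end, with 24.4, 18.9 and 24.5 CPM against 39.5, 37.1 and 39.7 CPM at 18 h and 24.3, 24.0 and 22.2 CPM against 31.0, 30.5 and 28.8 CPM at 24 h. The log2 fold changes were -0.76 ± 0.12 (adjusted p 0.0096) and -0.35 ± 0.08 (adjusted p 0.0223). The 18 h call was lost without replicate 1 or 3 of DMSO (adjusted p 0.0505 and 0.0608), and the 24 h call without any 1 of the DMSO libraries or replicate 3 of C59 (adjusted p 0.0510 to 0.121). The C59 libraries of *Lef1* also lay below those of DMSO at 18 h and 24 h, by -0.38 ± 0.12 and -0.17 ± 0.07, and these differences did not pass (adjusted p 0.108 and 0.189).

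**Figure D2:**
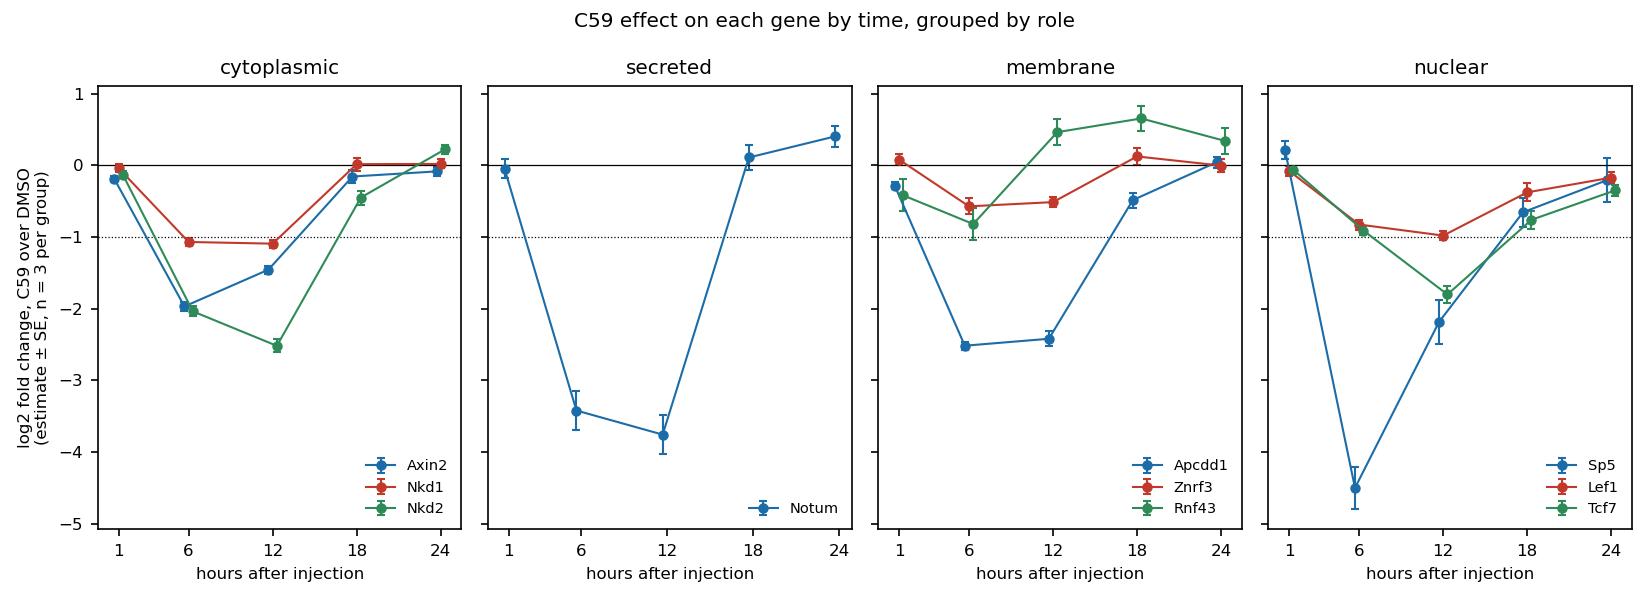
Log2 fold change of C59 over DMSO for each gene against hours after injection, in 4 panels by where the gene product acts. Points are edgeR estimates ± SE (derived from the test, 3 libraries per group), and the dotted line marks -1. *Sp5* and *Notum* go lowest, *Nkd2* and *Tcf7* are lower at 12 h than at 6 h, and *Rnf43* is above 0 from 12 h on.

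Over the 10 genes the median log2 fold change was -0.072 at 1 h and -1.52 at 6 h. It was -1.63 at 12 h, then -0.27 at 18 h and 0.0080 by 24 h. The median over all tested genes stayed between 0.0012 and 0.017 at the 5 times. With a decrease of more than 1 on the log2 scale added to the test, 6 of the 10 genes passed at 6 h (0.740% of all tested genes) and 7 at 12 h (1.43%). With glmTreat, which tests against that size, and with limma on log2(FPKM + 1) it was 5 at each time. The 6 were *Axin2*, *Notum*, *Nkd1*, *Nkd2*, *Apcdd1* and *Sp5*, and *Tcf7* joined them at 12 h. No gene of the set was higher in edgeR's test at any time. At an unadjusted p below 0.05 edgeR had 1 gene higher at 12 h (*Rnf43*), 1 at 18 h (*Rnf43*) and 2 at 24 h (*Notum* and *Nkd2*). DESeq2 had 1 higher at 18 h and 1 at 24 h, and limma on log2(FPKM + 1) had 1 at 12 h and 1 at 18 h, each after adjustment. In edgeR's adjusted test 22.0% of all tested genes were higher at 12 h. The shares of all genes under the other rules are not given here, so these counts are not read as a result about the set.

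Levels of markers of other cell types moved with C59 at the same times, and their part in these results was not tested. At 12 h the 10 surface ectoderm markers summed to 168 to 227 FPKM with C59 and 112 to 126 FPKM with DMSO, and 9 of them were higher. At 6 h these sums were 123 to 124 and 110 to 128 FPKM, with 1 marker higher and 2 lower. The 8 macrophage markers summed to 18.9 to 21.1 FPKM with C59 and 10.9 to 11.8 FPKM with DMSO at 12 h, and 6 of them were higher. The 7 limb mesenchyme markers summed to 425 to 444 FPKM with C59 and 580 to 619 FPKM with DMSO at 6 h, and to 409 to 436 and 575 to 603 FPKM at 12 h. Of these 4 were lower at 6 h, and 4 were lower and 1 higher at 12 h, with *Twist1* and *Prrx1* among the lower ones and *Tbx5* the higher. The 8 endothelium markers summed to 99.9 to 111 FPKM with C59 and 77.2 to 86.5 FPKM with DMSO at 12 h, and 4 of them were higher. The 7 muscle progenitor markers summed to 44.2 to 50.0 and 29.8 to 31.1 FPKM at 6 h, where 2 were higher (*Myod1* and *Myog*) and 1 lower (*Pax3*), and at 12 h 3 were higher and 3 lower. The 8 erythroid markers summed to 1140 to 1861 FPKM with C59 and 897 to 1255 FPKM with DMSO at 12 h. These ranges overlap, and of the 6 markers tested 1 was higher and 0 lower. At 1 h their sums were 792 to 1240 FPKM with C59 and 489 to 872 FPKM with DMSO, which also overlap. Of the 6 tested then, 2 were higher and 0 lower. The share of all genes higher at 1 h is not given here, so this count is not read as a result. Shares of all tested genes were 11.4% lower and 8.20% higher at 6 h, and 25.5% lower and 22.0% higher at 12 h. Some of the marker counts at these times are near those shares. No marker of these lists was at 0 in all 3 libraries of a group.

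The C59 effect differed between neighbouring times, and the size of that change was tested directly on the 12 libraries of both times. Consecutive contrasts share the libraries of the middle time. From 1 h to 6 h it became more negative for 9 genes (7.65% of all tested genes), with changes from -0.65 ± 0.15 (*Znrf3*) to -4.71 ± 0.29 (*Sp5*) on the log2 scale, and *Rnf43* did not pass (-0.40 ± 0.33, adjusted p 0.492). From 6 h to 12 h the set split. For *Nkd2* and *Tcf7* the effect deepened further (-0.48 ± 0.12 and -0.89 ± 0.13, adjusted p 0.0100 and 0.000204; 11.5% of all tested genes). For *Axin2*, *Sp5* and *Rnf43* it moved upward (6.59% of all tested genes), by 0.51 ± 0.09, 2.31 ± 0.48 and 1.28 ± 0.31 (adjusted p 0.000741, 0.00305 and 0.00831). The remaining 5 genes did not pass, with estimates from -0.34 ± 0.46 (*Notum*) to 0.10 ± 0.12 (*Apcdd1*).

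From 12 h to 18 h the effect moved upward for 9 genes (4.94% of all tested genes), most for *Notum* (3.87 ± 0.34) and least for *Lef1* (0.61 ± 0.14), and *Rnf43*, which was not lower at 12 h, did not pass (0.19 ± 0.25, adjusted p 0.693). Without replicate 3 of C59 at 18 h all 9 still passed, with 3.72 ± 0.32 for *Notum* and 0.71 ± 0.10 for *Lef1*. The call for *Sp5* was lost without replicate 3 of DMSO at 12 h or replicate 2 or 3 of DMSO at 18 h (adjusted p 0.0513 to 0.0639), and the call for *Lef1* without replicate 3 of DMSO at 12 h (adjusted p 0.0518). From 18 h to 24 h it moved upward for *Nkd2* (0.66 ± 0.12, adjusted p 0.00496) and *Apcdd1* (0.52 ± 0.14, adjusted p 0.0348), against 3.53% of all tested genes. Without replicate 3 of C59 at 18 h *Tcf7* passed as well (0.46 ± 0.13, adjusted p 0.0318), where all libraries gave 0.40 ± 0.14 (adjusted p 0.108). The number of genes that passed in this last step fell to 1 without 8 of the 12 libraries in turn.

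The set holds 3 pairs of related genes, and within a pair the members did not always respond alike. For *Nkd1* and *Nkd2* the log2 ratio within a library was -0.13 ± 0.02 in DMSO and 0.84 ± 0.14 in C59 at 6 h (SD, n = 3), and -0.24 ± 0.03 and 1.20 ± 0.25 at 12 h. Averaged over both times, C59 shifted the ratio by 1.20 toward *Nkd1* (exact permutation test within time points, two-sided, p = 0.005, the smallest that 400 arrangements can give, and 0.015 adjusted over the 3 pairs). For *Lef1* and *Tcf7* the shift was 0.45 toward *Lef1* (exact permutation test, p = 0.015, adjusted 0.0225). It came from 12 h, where the log2 ratio was 0.29 ± 0.14 in DMSO and 1.12 ± 0.10 in C59, since at 6 h it was 0.0023 ± 0.04 and 0.080 ± 0.09. For *Znrf3* and *Rnf43* the shift of -0.35 did not pass (exact permutation test, p = 0.24, adjusted 0.24), and the groups had log2 ratios of 2.77 ± 0.48 in DMSO and 3.06 ± 0.45 in C59 at 6 h but 3.0 ± 0.29 and 2.01 ± 0.15 at 12 h. At 18 h the log2 ratio of *Nkd1* to *Nkd2* was still higher in all C59 libraries (-0.023 to 0.21) than in DMSO (-0.44 to -0.36), and at 24 h it was lower (-0.25 to -0.20 against -0.063 to 0.022). These 2 times were not part of the test. At 1 time alone 3 against 3 libraries cannot give an exact p below 0.10.

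**Figure D3:**
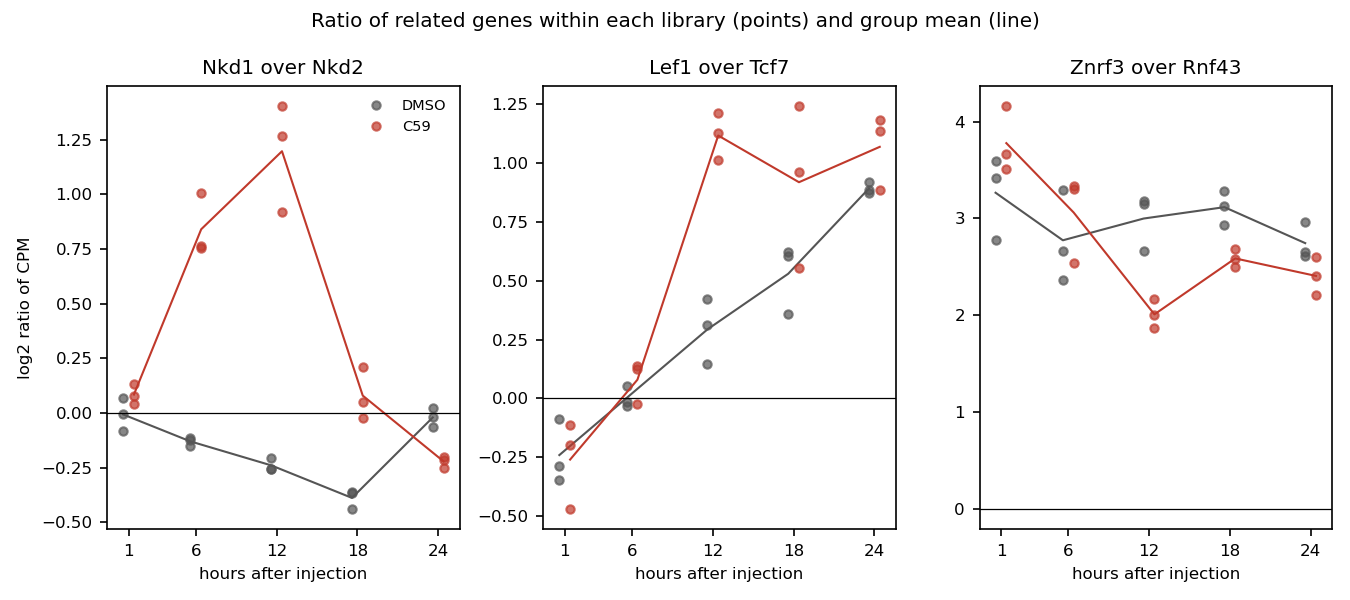
Log2 ratio of CPM between related genes in each library (points, DMSO grey and C59 red) and group means (lines) against hours after injection. *Nkd1* over *Nkd2* separates the groups from 6 h on, with C59 above DMSO to 18 h and below it at 24 h, and *Lef1* over *Tcf7* rises with time in DMSO.

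Levels of the set in the DMSO limb buds alone were compared between 1 h and 24 h. Of the 10 genes 5 were lower (29.2% of 13580 tested genes were lower) and 3 were higher (30.2%), the latter a share near that of all genes, and 5 rather than 8 genes passed with limma. *Tcf7* fell from 72.8 ± 3.64 to 30.1 ± 1.14 CPM (n = 3, SD), which is -1.28 ± 0.06 (SE) on the log2 scale, with intermediate means of 58.8, 49.3 and 38.8 CPM at 6, 12 and 18 h. *Sp5* fell from 6.32 ± 0.257 to 2.13 ± 0.215 CPM (-1.58 ± 0.16). *Notum* (-0.54 ± 0.14), *Axin2* and *Lef1* (each -0.15 ± 0.05) were lower by less. *Apcdd1* rose from 101 ± 1.87 to 137 ± 4.23 CPM (0.44 ± 0.04), and *Nkd2* (0.21 ± 0.04) and *Nkd1* (0.19 ± 0.05) rose by less. *Znrf3* and *Rnf43* did not pass, with -0.12 ± 0.08 and 0.40 ± 0.20. Injection time points are also later embryonic stages, so hours since DMSO injection and developmental age cannot be told apart.

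Lists of other pathway genes had medians near 0 at 6 h and 12 h, apart from further targets of β-catenin. Of the 9 genes of the destruction complex and β-catenin, 2 were higher and 0 lower at 6 h, and 1 was higher and 2 lower at 12 h, with medians of 0.048 and 0.00042 on the log2 scale. Among all tested genes 11.4% were lower and 8.20% higher at 6 h, and 25.5% lower and 22.0% higher at 12 h. *Apc2*, a relative of the tumour suppressor gene *Apc*, rose most (0.65 ± 0.09 at 6 h and 1.15 ± 0.10 at 12 h). The scaffold gene *Axin1*, the relative of *Axin2*, fell by 0.29 ± 0.04 on the log2 scale at 12 h. Of the 8 receptor, Dishevelled and WNT secretion genes 2 were lower and 1 higher at 6 h, and 1 lower and 1 higher at 12 h. The extremes were *Kremen2*, a receptor for DKK proteins (-0.43 ± 0.11), and the co-receptor gene *Lrp6* (0.23 ± 0.06) at 6 h, and *Dvl1* (-0.18 ± 0.06), a Dishevelled gene, and *Lrp5* (0.29 ± 0.04) at 12 h. *Wls* had log2 fold changes between -0.066 and 0.078 at the 5 times. *Porcn*, which lies on the X chromosome and was read from the FPKM table only, stood at 2.72 ± 0.508 FPKM in DMSO and 3.80 ± 0.398 FPKM in C59 at 12 h (SD, n = 3) and between 2.31 and 4.25 FPKM over all libraries.

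Of the 13 TCF relatives and nuclear cofactors, 3 were lower and 4 higher at 6 h and 4 were lower and 3 higher at 12 h, the last 2 counts being near the shares of all genes. *Tcf7l2*, a relative of *Lef1* and *Tcf7*, rose while those 2 fell, by 0.69 ± 0.06 at 6 h (66.7 to 108 CPM) and 0.99 ± 0.07 at 12 h (69.2 to 138 CPM). The largest decreases were those of the co-repressor genes *Tle1* at 6 h (-0.47 ± 0.05) and *Ctbp2* at 12 h (-0.24 ± 0.05). Of 20 further genes known as targets of β-catenin, 17 were tested at 6 h and 16 at 12 h. Of these 10 were lower and 2 higher at 6 h, and 12 were lower and 3 higher at 12 h, beside the shares of all genes given above, with medians of -0.60 and -0.68. The receptor gene *Tnfrsf19* fell most at 6 h (-1.54 ± 0.07, 48.8 to 16.8 CPM) and *T*, which encodes Brachyury, at 12 h (-3.02 ± 0.33, 2.57 to 0.305 CPM). The guidance receptor gene *Ephb3* (0.40 ± 0.05 at 6 h) and *Cyp26a1*, a retinoic acid degrading enzyme (0.84 ± 0.17 at 12 h), rose most.

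**Figure D4:**
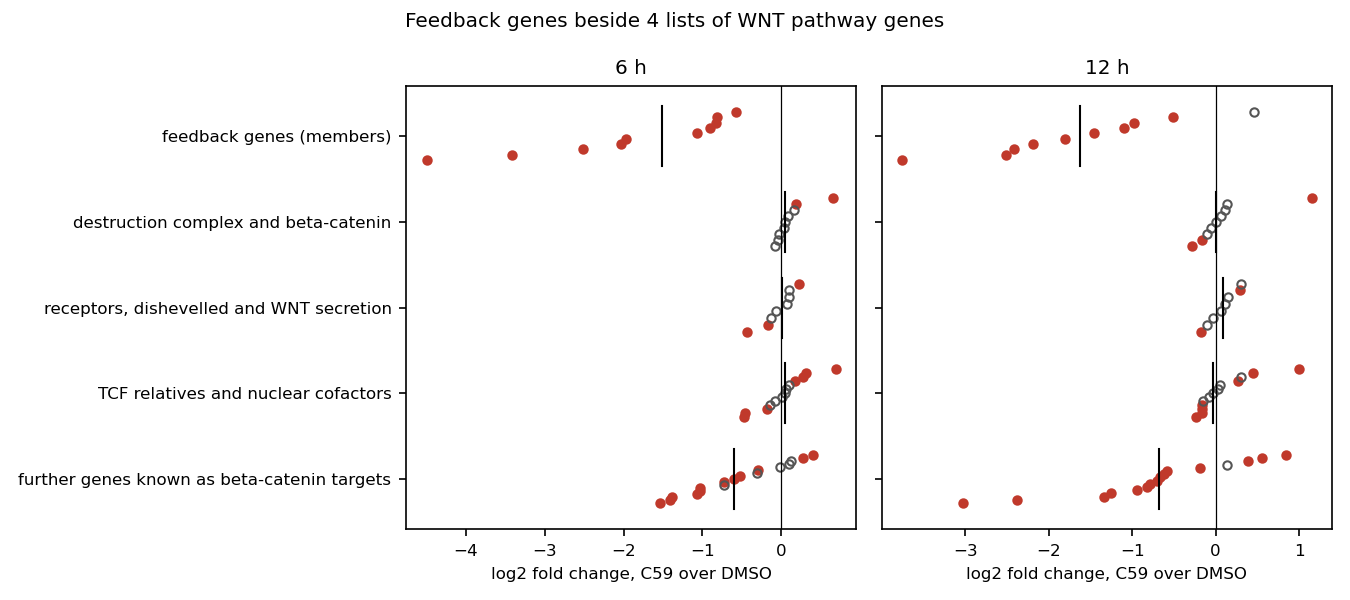
Log2 fold change of C59 over DMSO at 6 h (left) and 12 h (right) for the 10 feedback genes and for 4 lists of pathway genes; each point is a gene, filled red where the adjusted p was below 0.05 and open otherwise, and the bar is the median. The feedback genes have medians of -1.52 and -1.63, and the further targets -0.60 and -0.68.

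Across all 5 times, the genes most like *Axin2* outside the set were looked for among 12417 genes by the root mean square difference of the 5 log2 fold changes. The nearest were *Dsc3* (0.27), *Dkk2* (0.29), *Twist1* (0.30), *Wif1* (0.31) and *Svopl* (0.31), of which *Wif1* is also among the further targets and *Twist1* among the mesenchyme markers. Within the set the nearest were *Nkd1* (0.45, rank 16), *Nkd2* (0.51, rank 24) and *Apcdd1* (0.52, rank 26). The farthest were *Notum* (1.24, rank 9629), *Sp5* (1.21, rank 8967) and *Rnf43* (1.08, rank 5111). This distance takes in the size of a change, so a gene that fell further than *Axin2* also counts as far. *Notum* and *Sp5* did so at 6 h and 12 h.

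The strand of counting is not given in the sources used here, so reads of a feedback gene and of a gene on the opposite strand cannot be told apart. By the GENCODE M21 annotation (GRCm38), 7 of the 10 genes overlap another counted gene. The overlapping genes were low beside their partners over the 30 libraries. *Notumos* had 520 counts against 3287 of *Notum*, and *Myadml2os* had 85. *A630014C17Rik* had 329 against 26704 of *Tcf7*, and *Gm43352* had 240 and *Gm42449* 31 against 33256 of *Lef1*. *Gm11670* had 88 against 62141 of *Axin2*. The others, *Gm45496* in *Nkd1*, *Gm8062* in *Nkd2*, and *1110028F11Rik* and *Gm25968* in *Rnf43*, had 27, 15, 44 and 0 counts.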

How the data were processed

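RNA of 30 libraries (5 times after injection, DMSO and C59, 3 embryos each) was analysed from 2 tables. Reads were trimmed by the authors (Cutadapt 1.16) and aligned to mm10 by STAR 2.7.0e, which wrote the deposited raw counts per gene. The deposited FPKM values were made by the authors with Cufflinks 2.2.1 (unstranded, with multi-read and bias correction). The counts hold no genes of chromosomes X, Y and M.

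Counts of protein-coding genes entered edgeR 4.0.16 under R 4.3.3 (TMM factors, quasi-likelihood test, filterByExpr with a minimum count of 10 and total of 15), on 6 libraries per time and on 12 for changes between times, with Benjamini-Hochberg adjustment over all tested genes. The rule of the study (DESeq2, adjusted p under 0.05, change over 1 on the log2 scale in either direction) was followed for the thresholds, and DESeq2 1.42.0 was run here as an alternative, as was limma 3.58.1 on log2(FPKM + 1). The SE of an edgeR log2 fold change was derived from the test, as the size of the change over the square root of the F statistic. It was not reported by edgeR itself. CPM values use TMM factors over all 30 libraries. Ratios of related genes were tested by exact permutation. The programs were tested on simulated data. p-values measure the spread between embryos, which includes differences between litters where the mothers differed. The injection was given to the mother. The study describes replicates from different litters, but the litter of each library is not given.

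The 10 genes, lists and markers were chosen with earlier results of these data known. Other genes are named by rule: in each of 4 lists the largest decrease and increase that passed at 6 h and 12 h, *Wls* and *Porcn*, the 5 genes nearest to *Axin2* with a mean of at least 1 CPM, and genes overlapping a member. Alternatives covered normalization, filters, pseudocounts, a replicate block and leaving out each library.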

Additional observations from a re-analysis of the deposited data

Results flagged for a closer look

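For 25 pairs of gene and step the C59 effect differed between neighbouring times in edgeR's interaction test, which is what marked them. Of all tested genes 7.65% moved downward from 1 h to 6 h, and 11.5% downward and 6.59% upward from 6 h to 12 h. Upward moves were found for 4.94% from 12 h to 18 h and 3.53% from 18 h to 24 h. Neighbouring steps share the libraries of the middle time, so the 25 pairs are not separate observations. From 1 h to 6 h the log2 fold change of C59 over DMSO moved by -4.71 for *Sp5*, -3.37 for *Notum*, -2.23 for *Apcdd1*, -1.90 for *Nkd2*, -1.77 for *Axin2* and -1.03 for *Nkd1*. The same step gave -0.84 for *Tcf7*, -0.74 for *Lef1* and -0.65 for *Znrf3*. At 1 h and 6 h the groups also differed in Y-linked signal, and its part in these changes was not tested.

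From 6 h to 12 h the effect moved by 2.31 for *Sp5*, 1.28 for *Rnf43* and 0.51 for *Axin2*, and by -0.48 for *Nkd2* and -0.89 for *Tcf7*. *Rnf43* was the only gene of the set whose estimate went from below 0 to above 0 in this step.

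From 12 h to 18 h it moved by 3.87 for *Notum*, 2.07 for *Nkd2*, 1.94 for *Apcdd1*, 1.54 for *Sp5*, 1.30 for *Axin2*, 1.11 for *Nkd1*, 1.05 for *Tcf7*, 0.64 for *Znrf3* and 0.61 for *Lef1*. From 18 h to 24 h it moved by 0.66 for *Nkd2* and 0.52 for *Apcdd1*.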

How the results depend on the processing

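The number of members lower at 6 h (10) was 9 with limma on either pseudocount of FPKM and 9 to 10 without 1 library, and that at 12 h (9) stayed 9 in every alternative run. The number lower at 1 h (2) was 0 with all 30 libraries sharing the spread, 1 with limma at pseudocounts of 1 and of 0.1, 1 with the replicate block and 1 to 2 without 1 library. The number lower at 18 h (3) was 6 with all 30 libraries sharing the spread, 1 with the replicate block and 0 to 3 without 1 library (0 without replicate 1 or 3 of DMSO). The number lower at 24 h (1) was 0 with limma and 0 to 1 without 1 library. The number higher at 12 h (0) was 1 with upper-quartile factors, with limma and in 1 of the fits without a library, and that at 18 h (0) was 1 with DESeq2, upper-quartile factors, all 30 libraries and limma, *Rnf43* each time. The number higher at 24 h (0) was 1 with DESeq2 (*Nkd2*), and without 1 library these 3 numbers ranged from 0 to 1. For the step from 18 h to 24 h (2) it was 1 with the replicate block and 1 to 3 without 1 library. For DMSO from 1 h to 24 h (8) it was 5 with limma. The cause of these differences was not tested.

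No pairing of the samples by replicate number was detected, as the correlation of same-numbered libraries' deviations ran from -0.213 to 0.136. With 3 libraries per group this check cannot exclude a shared batch. The step from 12 h to 18 h (9) was 7 with the replicate block, without *Sp5* and *Lef1*, and 7 to 9 without 1 library. The other numbers the block moved are those above.

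*Nkd1* over *Nkd2* shifted by 0.97 at 6 h alone and 1.44 at 12 h alone (exact permutation p = 0.1 each, the smallest possible), and by 1.15 to 1.27 without 1 library. *Lef1* over *Tcf7* shifted by 0.077 at 6 h alone (exact permutation p = 0.3) and 0.82 at 12 h alone (p = 0.1, exact), and by 0.41 to 0.48 without 1 library. *Znrf3* over *Rnf43* shifted by -0.42 with log2(FPKM + 1), where it passed (exact permutation p = 0.03), by 0.29 at 6 h alone, the opposite direction, and by -0.45 to -0.22 without 1 library.

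Signs turned only for differences that passed in neither fit. At 1 h *Notum* was at 0.13 and 0.15 with limma at pseudocounts of 1 and 0.1 and between -0.11 and 0.0039 without 1 library, and *Lef1* between -0.13 and 0.0065 without 1 library. At 18 h *Nkd1* was at -0.0020 with all 30 libraries and between -0.017 and 0.069 without 1 library, and *Notum* between -0.042 and 0.24. At 24 h *Znrf3* was at 0.0088 with upper-quartile factors, at 0.0048 and 0.0060 with limma and between -0.061 and 0.056 without 1 library. *Nkd1* was then between -0.017 and 0.063, *Apcdd1* between -0.038 and 0.13, and *Sp5* between -0.69 and 0.0068.

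Few counts limit *Sp5*, *Notum* and *Rnf43*: at 6 h with C59 *Sp5* had 3 to 8 counts per library and *Notum* 7 to 21, so the sizes of their decreases are known less well than their direction.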
